A study of Mus musculus with 47 samples.

Results

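The 8 genes described here, Ddit4, Ddit4l, Eif4ebp1, Eif4ebp2, Sesn1, Sesn2, Sesn3 and Deptor, encode proteins that restrain mTOR signalling or a step directly downstream of it. They are 8 of the 24391 genes in the count tables and were taken by symbol from tables covering gastrocnemius muscle and brown and white adipose tissue. The set was chosen by one measured result: Eif4ebp1 RNA was lower in brown fat and higher in muscle of tumour-bearing mice given IgG1 than of mice without a tumour. The comparison of IgG1 with tumour-free mice in brown fat and in muscle is therefore reported below as a description with no p-value. Counts of genes called in it are printed beside the share of all genes, nothing is read from them, and they support nothing else. The other comparisons in brown fat and muscle reuse the same IgG1 or tumour-free libraries and are not independent of that choice.

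The mice were C57Bl6. NTB mice carried no tumour and no antibody is stated for them, IgG1 mice carried HT1080 tumours and received control IgG1, and 3P10 mice carried HT1080 tumours and received 3P10, an antibody to GFRAL. HT1080 is a human fibrosarcoma line, and GFRAL is the receptor of the circulating factor GDF15. Antibody was given at 3 mg/kg each week from day 0, and tissues were taken on day 21. The IgG1 to NTB contrast joins the tumour with the control antibody, whereas 3P10 and IgG1 mice differ in the antibody alone. Sex, age, the immune status of the hosts and whether the tissues came from the same animals are not stated in the sources used here, so a p-value below measures the spread between libraries. There were 5 libraries per group in muscle and in white fat. In brown fat there were 6 for NTB, 5 for IgG1 and 6 for 3P10.

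mTOR complex 1 (mTORC1) is the kinase complex through which amino acids, insulin and energy supply promote protein synthesis and hold back autophagy. DDIT4 (also called REDD1) and its relative DDIT4L lower mTORC1 activity through the TSC complex, the sestrins act on the GATOR branch that reports amino acid supply, and DEPTOR binds the mTOR kinase itself. The 4E-binding proteins encoded by Eif4ebp1 and Eif4ebp2 are mTORC1 substrates that, when not phosphorylated, hold the cap-binding factor eIF4E and block cap-dependent translation. In muscle, Ddit4 is a known target of glucocorticoids, and Sesn1 and other members respond to stress or to FOXO and p53 factors. None of these measurements reports mTOR activity or protein phosphorylation, since only RNA was counted.

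Upstream sequences are printed for Ddit4 and Sesn1, which are described below beside Eif4ebp1 in muscle, and for Eif4ebp2, which is described beside Eif4ebp1 in brown fat. They are the 250 bases before the annotated start, 5′ to 3′ on the strand of the gene, from RefSeq on GRCm38.p6. The counts were made on mm9, so genes were matched by symbol and no coordinate was carried between builds. RefSeq windows matched 6 of the 8 symbols with 7 windows, because Sesn1 has 2 annotated starts. Annotation places Ddit4, Eif4ebp2 and Sesn1 on chromosome 10, Ddit4l on 3, Sesn2 on 4, Eif4ebp1 on 8, Sesn3 on 9 and Deptor on 15. Capitals mark matches to a motif.
Ddit4 chr10:59951771-59952020 minus strand: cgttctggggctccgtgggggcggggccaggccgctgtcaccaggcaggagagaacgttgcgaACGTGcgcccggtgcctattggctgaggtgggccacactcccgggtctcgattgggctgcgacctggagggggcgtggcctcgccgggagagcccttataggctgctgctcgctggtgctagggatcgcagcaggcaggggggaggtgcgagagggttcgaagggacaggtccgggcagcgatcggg
Sesn1 first start chr10:41810324-41810573 plus strand: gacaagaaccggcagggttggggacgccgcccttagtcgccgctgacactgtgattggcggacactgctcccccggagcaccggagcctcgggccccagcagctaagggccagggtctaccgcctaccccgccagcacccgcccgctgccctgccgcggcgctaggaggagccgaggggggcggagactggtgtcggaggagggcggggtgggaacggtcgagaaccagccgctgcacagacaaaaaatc
Sesn1 second start chr10:41887189-41887438 plus strand: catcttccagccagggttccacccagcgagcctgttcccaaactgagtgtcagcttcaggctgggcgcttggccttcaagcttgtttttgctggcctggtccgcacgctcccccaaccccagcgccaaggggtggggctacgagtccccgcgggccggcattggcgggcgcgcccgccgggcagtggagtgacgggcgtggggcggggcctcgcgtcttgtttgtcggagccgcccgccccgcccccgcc
Eif4ebp2 chr10:61452670-61452919 minus strand: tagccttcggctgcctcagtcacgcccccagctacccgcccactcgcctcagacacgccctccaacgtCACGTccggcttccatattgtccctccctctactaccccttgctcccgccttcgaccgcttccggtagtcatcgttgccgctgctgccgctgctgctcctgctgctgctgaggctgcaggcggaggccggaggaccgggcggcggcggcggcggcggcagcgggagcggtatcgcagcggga
Each window was searched on both strands for 5 motifs: the glucocorticoid response element (AGAACA, any 3 bases, then TGTTCT), the FOXO site GTAAACA, the ATF4 composite site TGATGNAA, the hypoxia response element ACGTG and the cyclic AMP response element TGACGTCA, which shares the letters ACGT with the one before. The only matches in the 7 windows were to ACGTG, 1 in Ddit4 with its first base at -187 from the start and 1 in Eif4ebp2, on the opposite strand as CACGT, with its first base at -182. The same 5 letters occur in 16.6% of 32851 windows of this length, and the other motifs in 0.00913% (glucocorticoid), 3.17% (FOXO), 3.45% (ATF4) and 1.55% (cyclic AMP). A match describes letters in a window and not a bound site.

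Brown fat was sequenced far less deeply than the other tissues, with 798886 to 2459761 counts per library. White fat libraries held 18621423 to 80661547 counts, and muscle libraries 24759436 to 33502175. Values are CPM (read counts scaled to a common library size) with TMM factors computed within a tissue, and 3 counts, the level that a count of 0 allows, correspond to 1.24 to 3.63 CPM in brown fat and to at most 0.161 CPM elsewhere. Levels in brown fat, from another library kit, are not set against the other tissues. Markers matched the labels: brown adipocyte genes summed to 8603 CPM or more in every brown fat library with all 8 markers detected, adipocyte genes to 24519.9 CPM or more in white fat, and skeletal muscle genes to 201872 CPM or more in muscle. Some libraries stood apart. In muscle, the libraries whose labels carry the numbers 14, 15, 16 and 23 (IgG1 replicate 2, 3P10 replicate 2, NTB replicate 3 and IgG1 replicate 4) lay at 51.7 to 57.6 on the first principal component and the other 11 at -2.71 or below, and their summed skeletal muscle markers were 279661 to 394585 CPM against 201872 to 270540 CPM. In white fat, IgG1 replicates 2 and 4, which carry the numbers 14 and 23, reached brown adipocyte marker sums of 5559 and 5556 CPM, where the remaining IgG1 libraries had 284 to 1791 CPM, and replicate 4 had 1067 CPM of keratinocyte markers. In brown fat the label numbers run through one group after another, so number and group cannot be told apart there.

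In brown fat, both 4E-binding protein genes and Deptor were higher with 3P10 than with IgG1, by 2.93-fold for Eif4ebp1, 2.02-fold for Eif4ebp2 and 1.26-fold for Deptor. Of the 6 members that passed the filter on low counts in brown fat, 3 rose and none fell in this comparison (edgeR quasi-likelihood test, adjusted p under 0.05), where 11.6% of the 8711 genes tested were called (6.05% up, 5.58% down). That count includes Eif4ebp1, chosen for being low in the same IgG1 libraries, and is not independent of that choice. Against NTB, 2 of the 6 rose, Eif4ebp1 and Eif4ebp2, where 5.75% of genes were called (3.03% up, 2.72% down). IgG1 against NTB is the contrast behind the choice. Eif4ebp1, the 1 member of 6 called there (downward), was chosen for that difference, and nothing is read from the count beside 2.97% of genes (1.86% up, 1.11% down). The groups of a comparison did not overlap for 6.29%, 3.01% and 2.54% of all genes in the same order, and for 3, 0 and 1 of the 6 members.

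Eif4ebp1, which encodes 4E-BP1, had NTB values in brown fat from 55.3 to 99.1 CPM with a median of 75.9 CPM. The 5 IgG1 libraries were at 43.7, 44.3, 32.7, 51.8 and 42.9 CPM. The 3P10 libraries ran from 83.0 to 179 CPM with a median of 114 CPM. Every IgG1 library lay below every NTB library and below every 3P10 library, whereas NTB and 3P10 overlapped. The log2 difference between IgG1 and NTB was -0.78 (SE 0.20), given as the value behind the choice. The log2 difference between 3P10 and IgG1 was 1.55 (SE 0.19, adjusted p = 5.53e-05), and that between 3P10 and NTB was 0.77 (SE 0.17, adjusted p = 0.0140), with 6 of 6 3P10 libraries above the NTB mean. Both reuse libraries behind the choice, IgG1 in the first and NTB in the second, so neither is independent of it. The order of the group levels was IgG1, NTB, 3P10.

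Eif4ebp2, the related gene for 4E-BP2, ran from 99.4 to 178 CPM in NTB brown fat with a median of 127 CPM. The IgG1 libraries were at 104, 79.6, 87.9, 145 and 104 CPM. The 3P10 libraries ran from 149 to 288 CPM with a median of 208 CPM. All 3P10 libraries lay above all IgG1 libraries, and the NTB and IgG1 ranges overlapped. The log2 difference was 1.02 (SE 0.19, adjusted p = 0.00147) for 3P10 against IgG1 and 0.70 (SE 0.17, adjusted p = 0.0222) for 3P10 against NTB, where the call was lost without NTB replicate 1 (adjusted p = 0.0533), NTB replicate 4 (0.0639), 3P10 replicate 4 (0.0506) or 3P10 replicate 6 (0.0652). IgG1 was -0.31 (SE 0.19) from NTB on the log2 scale. The group means had the same order as for Eif4ebp1.

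Deptor, the gene for the mTOR-binding inhibitor, ran from 674 to 963 CPM in NTB brown fat with a median of 814 CPM. The IgG1 libraries were at 708, 712, 605, 612 and 717 CPM, and the 3P10 libraries ran from 726 to 962 CPM with a median of 851 CPM. The IgG1 and 3P10 ranges did not overlap, with nearest values of 717 and 726 CPM, and both overlapped NTB. The log2 difference of 3P10 from IgG1 was 0.34 (SE 0.10, adjusted p = 0.0339), that of 3P10 from NTB was 0.07 (SE 0.10, adjusted p = 0.719) and that of IgG1 from NTB was -0.27 (SE 0.10). The 3P10 to IgG1 call did not survive leaving out IgG1 replicate 3 (adjusted p = 0.0943) or 4 (0.0731), or 3P10 replicate 2 (0.0528), 3 (0.0744) or 6 (0.0762). Deptor overlaps Gm9920 on the opposite strand, and the strand setting of the counting is not given, so reads of the pair cannot be told apart.

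**Figure D1:**
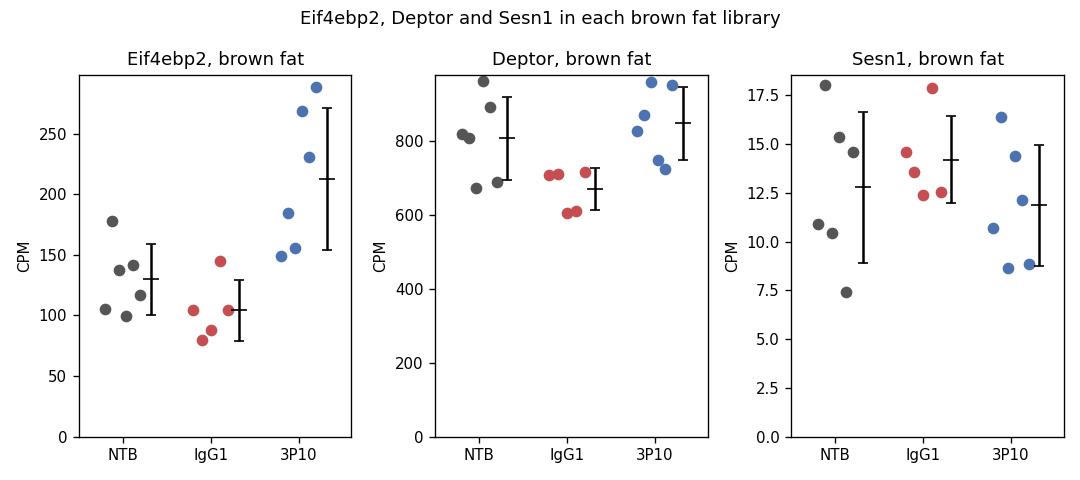
Eif4ebp2, Deptor and Sesn1 in brown fat, in CPM on axes that start at 0, with 1 point per library (6 NTB, 5 IgG1, 6 3P10) and bars for the mean ± SD. The 3P10 points of Eif4ebp2 (149 to 288 CPM) and Deptor (726 to 962 CPM) lie above all IgG1 points, while the Sesn1 groups overlap.

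The other members gave no call in brown fat. Ddit4 ran from 18.6 to 56.1 CPM in NTB, was at 48.2, 39.8, 59.7, 52.7 and 80.5 CPM in IgG1 and ran from 15.7 to 104 CPM in 3P10, so that all 3 groups overlapped. Its log2 difference from NTB was 0.60 (SE 0.32) in IgG1 and 0.49 (SE 0.31, adjusted p = 0.363) in 3P10. Sesn1, a p53- and FOXO-responsive sestrin, ran from 7.43 to 18.02 CPM in NTB, 12.4 to 17.9 CPM in IgG1 and 8.66 to 16.4 CPM in 3P10. Its 3P10 to IgG1 log2 difference was -0.30 (SE 0.23, adjusted p = 0.450), with an interval of -0.78 to 0.19. Ddit4l was near the counting limit, with 1 to 16 counts per library. Sesn2 (0 to 6 counts per library) and Sesn3 (0 to 8 counts) did not pass the filter. Sesn3 summed to 4 counts over the 5 IgG1 libraries, 23 over the 6 NTB libraries and 26 over the 6 3P10 libraries. Every IgG1 library had 0 or 1 count and every 3P10 library 2 to 8, so these groups did not overlap, while NTB, at 1 to 8, overlapped both. Sesn3 was not tested in brown fat, and values this low lie at or near the counting limit.

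Cell type markers moved with the brown fat groups. The brown adipocyte markers summed to 9504 to 11326 CPM in NTB, 8603 to 9089 CPM in IgG1 and 11476 to 14981 CPM in 3P10, ranges that did not overlap and that stood in the same order as the Eif4ebp1 levels. Endothelial markers summed to 911 to 1391, 624 to 1325 and 640.5 to 956 CPM, and skeletal muscle markers to 764 to 2878, 187 to 2244 and 36.0 to 2177 CPM. Their part in the member differences was not tested, apart from a fit with a term for the skeletal muscle markers. The term was the scaled sum of their log2 CPM, not the CPM sums above, and Eif4ebp1 and Eif4ebp2 were called in both 3P10 comparisons. In bulk tissue, fewer cells of a type and less RNA per cell cannot be told apart.

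In muscle, Ddit4, Eif4ebp1 and Sesn1 were higher in IgG1 mice than in NTB mice by 13-, 3.48- and 1.83-fold, and in 3P10 mice their ranges overlapped those of NTB mice. Of the 8 members, all tested in muscle, 3 were called between IgG1 and NTB, all upward, beside 5.60% of 13283 genes (2.68% up, 2.92% down). Eif4ebp1 was chosen for its rise in this contrast, and nothing is read from that count. Between 3P10 and IgG1, 1 of the 8 was called, Ddit4, which fell, where 0.211% of genes were called (0.0903% up, 0.120% down), and 3 of the 8 had an unadjusted p under 0.05 beside 10.8% of all genes. The groups did not overlap for 2 of the 8 members in each of these comparisons, beside 6.38% and 2.45% of genes. Between 3P10 and NTB none of the 8 and 0% of the genes tested were called by edgeR, the groups of 1.53% of genes and of no member did not overlap, no member had an unadjusted p under 0.05, and DESeq2 called none of the members and 14 genes in all.

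Ddit4, the gene for REDD1, was at 8.0, 8.42, 5.35, 9.05 and 12.3 CPM in NTB muscle. The IgG1 libraries were at 17.8, 58.2, 220.1, 239.7 and 24.7 CPM. The 3P10 libraries were at 15.3, 5.31, 9.97, 7.43 and 8.79 CPM. All 5 IgG1 libraries lay above every other muscle library, but the IgG1 values were widely spread while NTB and 3P10 shared one low range. The log2 difference of IgG1 from NTB was 3.70 (SE 0.63). That of 3P10 from IgG1 was -3.58 (SE 0.63, adjusted p = 0.0294), with 5 of 5 3P10 libraries below the IgG1 mean. This call was lost in 6 of the 10 fits that left out 1 library, namely IgG1 replicate 3 (adjusted p = 0.0676) or 4 (0.0787) or 3P10 replicate 2 (0.0932), 3 (0.0764), 4 (0.103) or 5 (0.0834), and its log2 difference stayed between -3.86 and -3.10 over the 10. It was also lost with the 2 groups fitted alone (0.109) and without the 4 muscle libraries that stood apart (-3.07, adjusted p = 0.0868), and over the 8 other settings tried the adjusted p ran from 1.31e-05 to 0.144.

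Eif4ebp1 in muscle was at 22.9, 26.7, 51.6, 32.03 and 37.0 CPM in NTB. The IgG1 libraries were at 74.9, 181, 70.9, 188 and 78.7 CPM. The 3P10 libraries were at 42.3, 62.4, 35.8, 44.4 and 50.3 CPM. Every IgG1 library exceeded every NTB and every 3P10 library, as for Ddit4, and NTB and 3P10 overlapped. The log2 difference of IgG1 from NTB was 1.80 (SE 0.31). The difference of 3P10 from IgG1 was -1.33 (SE 0.30) and did not pass the test (adjusted p = 0.0808), although the groups did not overlap. Over the 8 other settings the adjusted p ran from 0.00297 to 0.182, and without IgG1 replicate 1 it was 0.0295 (-1.46). The difference of 3P10 from NTB was 0.47 (SE 0.30, adjusted p = 0.999946), with 5 of 5 3P10 libraries above the NTB mean.

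**Figure D2:**
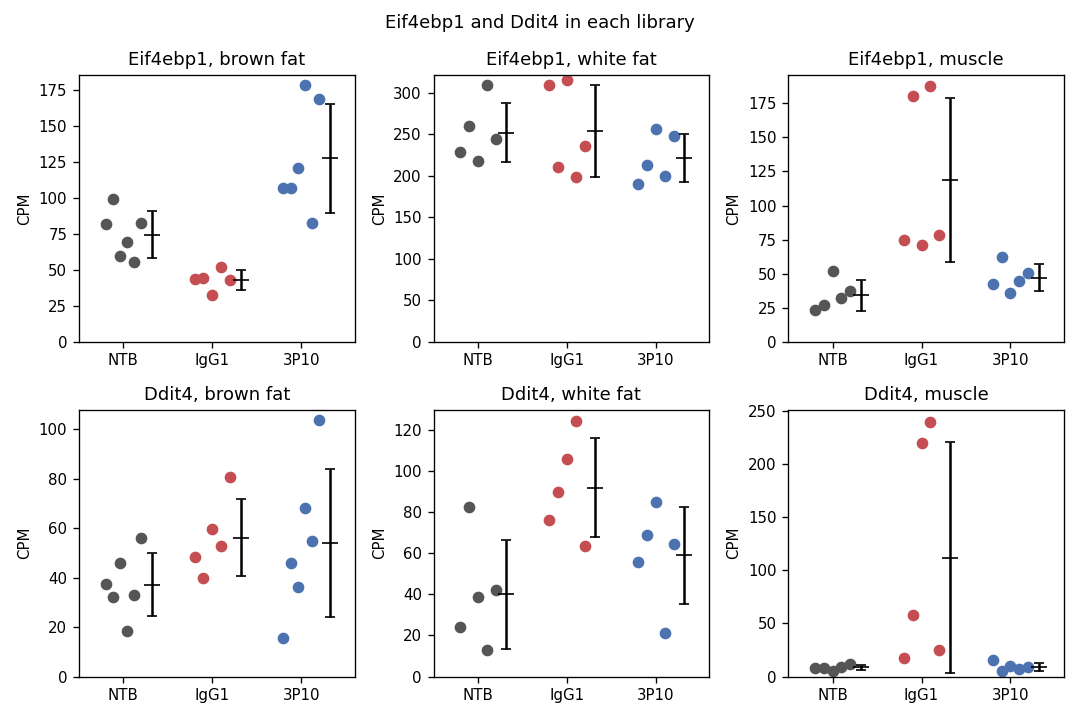
Eif4ebp1 (upper row) and Ddit4 (lower row) in CPM per library in brown fat, white fat and muscle, with points for libraries and bars for the mean ± SD. Eif4ebp1 in IgG1 is the lowest group in brown fat (32.7 to 51.8 CPM) and the highest in muscle (70.9 to 188 CPM), and levels in brown fat are not on the same scale as the other tissues because the kit differs.

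Within each muscle group, the highest Eif4ebp1 value belonged to libraries numbered 14, 15, 16 and 23. Across groups these 4 libraries had 51.6 to 188 CPM and the other 11 had 22.9 to 78.7 CPM. Eif4ebp2 showed the reverse, at 12.6 to 45.4 CPM in the 4 and 75.2 to 170.0 CPM in the 11, with no overlap, and Sesn3 lay likewise at 0.906 to 1.25 against 2.12 to 5.98 CPM. Deptor (34.2 to 62.7 against 45.4 to 119 CPM) and Sesn2 (1.28 to 2.24 against 2.10 to 5.24 CPM) overlapped across groups. Within each group their lowest values were those of the numbered libraries. Ddit4 ranged from 5.31 to 239.7 CPM in the 4 and 7.43 to 220.1 CPM in the 11. Within groups its position differed: number 16 was the lowest in NTB and number 15 in 3P10, while number 23 was the highest in IgG1. Without the 4 libraries the IgG1 to NTB log2 differences were 3.216 for Ddit4, 1.34 for Eif4ebp1, 0.52 for Eif4ebp2 and 0.52 for Sesn1, and the 3P10 to IgG1 difference of Eif4ebp1 was -0.79 (adjusted p = 0.0593), in a fit that called 0.134% of genes and no member for 3P10 against IgG1.

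A fit with a term for those 4 libraries, added after their values were seen, compares 3P10 with IgG1 while allowing each gene its own shift in them. In that fit 4 of the 8 members were called, all downward, beside 5.03% of genes called in either direction (338 genes up, 330 down). Eif4ebp1, among the 4, was chosen for being high in the same IgG1 libraries. Ddit4 fell by 3.59 on the log2 scale (adjusted p = 0.00649), Eif4ebp1 by 1.02 (SE 0.15, adjusted p = 0.00297), Eif4ebp2 by 0.90 (SE 0.20, adjusted p = 0.0183) and Deptor by 0.66 (SE 0.17, adjusted p = 0.0363). Sesn1 was at -0.57 (adjusted p = 0.0506) and Sesn2 at -0.51 (adjusted p = 0.119). DESeq2 without that term called 3 of the 8, Ddit4, Eif4ebp1 and Sesn1, all downward, beside 1.88% of genes. Which members pass in muscle thus differed between fits. Ddit4, Eif4ebp1, Eif4ebp2, Deptor, Sesn1 and Sesn2 were downward in the fits named here, which reuse the same libraries. Ddit4l was upward, at 0.31 with the term and 0.25 in the edgeR fit without it. Sesn3 was at -0.09 with the term and 0.13 in the edgeR fit without it.

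Sesn1 in muscle was at 41.3, 36.4, 33.4, 47.8 and 34.2 CPM in NTB. The IgG1 libraries were at 47.7, 95.2, 65.7, 86.1 and 58.4 CPM, and the 3P10 libraries at 43.1, 40.9, 46.3, 51.9 and 46.9 CPM. The lowest IgG1 value lay within the range of both other groups, and the other 4 IgG1 values lay above all of them. The log2 difference was 0.87 (SE 0.17) for IgG1 against NTB, -0.62 (SE 0.17, adjusted p = 0.148) for 3P10 against IgG1 and 0.25 (SE 0.17, adjusted p = 0.999946) for 3P10 against NTB. Leaving out 1 library gave adjusted p-values for 3P10 against IgG1 from 0.0286 (without IgG1 replicate 1) to 0.393 (without IgG1 replicate 4), and without the 4 libraries that stood apart the difference was -0.28 (adjusted p = 0.374).

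The remaining muscle members overlapped in all groups. Eif4ebp2 was at 97.0, 86.1, 13.7, 108 and 99.1 CPM in NTB, 170.0, 39.8, 125, 45.4 and 126 CPM in IgG1 and 106, 12.6, 99.3, 109 and 75.2 CPM in 3P10, the low values being those of the 4 numbered libraries. Its log2 difference was 0.32 (SE 0.56) for IgG1 against NTB and -0.33 (SE 0.56, adjusted p = 0.915) for 3P10 against IgG1. Without the 4 libraries these were 0.52 (SE 0.14) and -0.52 (SE 0.14, adjusted p = 0.154), and with the term for them 0.88 (SE 0.20) and -0.90 (SE 0.20, adjusted p = 0.0183). Deptor was at 50.7, 66.5, 34.2, 57.3 and 84.5 CPM in NTB, 119, 62.7, 74.9, 56.6 and 91.6 CPM in IgG1 and 50.9, 36.9, 45.4, 70.6 and 79.8 CPM in 3P10. Deptor thus differed by 0.47 (SE 0.26) and -0.51 (SE 0.26, adjusted p = 0.505) in the same 2 contrasts.

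Ddit4l, which is abundant in skeletal muscle, had its highest muscle values in NTB replicate 3 (477 CPM) and 3P10 replicate 2 (442 CPM). Both are among the 4 numbered libraries, and the highest of the other 11 was IgG1 replicate 1 at 393 CPM. Ddit4l was at 347, 247, 477, 365 and 256 CPM in NTB, 393, 337, 191, 225 and 159.9 CPM in IgG1 and 283, 442, 281, 327 and 215 CPM in 3P10, with wide overlap. The log2 differences were -0.37 (SE 0.26) for IgG1 against NTB and 0.25 (SE 0.26, adjusted p = 0.841) for 3P10 against IgG1, opposite in sign to those of Ddit4. Sesn2, the leucine-sensing sestrin, was at 1.58 to 3.48 CPM in NTB, 2.21 to 5.24 CPM in IgG1 and 1.28 to 3.91 CPM in 3P10, with log2 differences of 0.38 (SE 0.31) and -0.32 (SE 0.30, adjusted p = 0.800). Sesn3 ranged from 0.906 to 5.98 CPM over all muscle libraries.

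**Figure D3:**
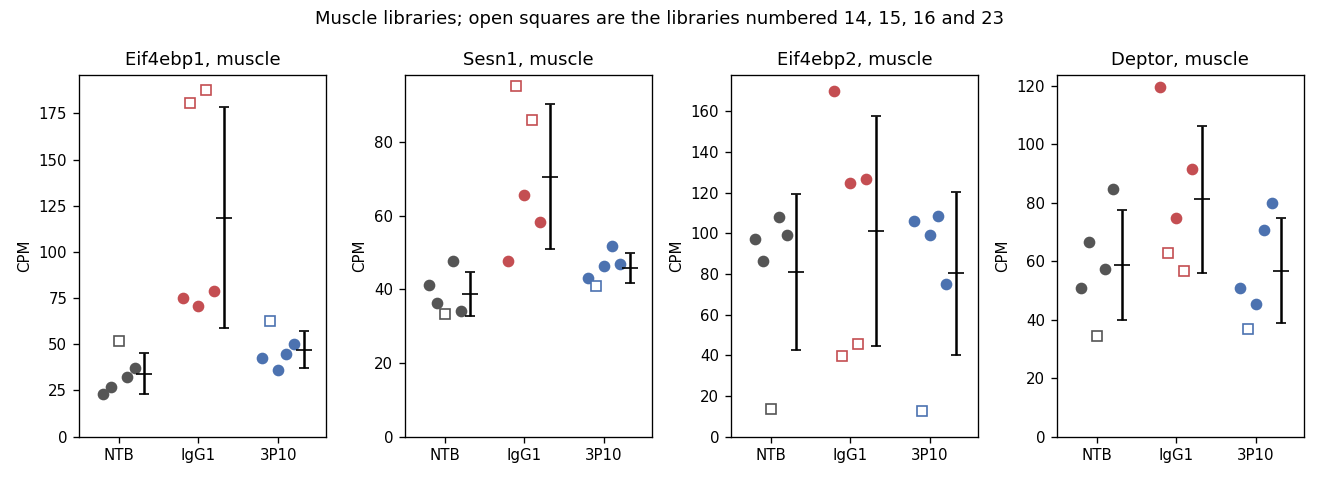
Eif4ebp1, Sesn1, Eif4ebp2 and Deptor in muscle, in CPM per library with bars for the mean ± SD of each group, and open squares for the libraries numbered 14, 15, 16 and 23. The squares are the highest Eif4ebp1 values of each group and the lowest Eif4ebp2 values, 12.6 to 45.4 CPM.

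Of the other marker lists in muscle, fibroblast markers summed to 885 to 1097 CPM in NTB against 459 to 747 CPM in IgG1 and 522 to 725 CPM in 3P10. In the same order, adipocyte markers summed to 241 to 778, 305 to 839 and 272 to 1338 CPM. Endothelial markers summed to 138 to 313, 98.8 to 209 and 142 to 232 CPM. The groups overlapped for both adipocyte and endothelial markers. Fibroblast markers overlapped between IgG1 and 3P10. Blood cell markers were at 1.81 to 3.09 CPM in IgG1 and 3.46 to 6.37 CPM in 3P10, with NTB at 2.69 to 4.06 CPM overlapping both. In each muscle library 5 or 6 of the 8 blood cell markers had 0 counts, so these sums rest on few genes. Slow muscle fibre markers overlapped in all groups (1777 to 5079.6 CPM over the 15 libraries). Their part in the member values was not tested.

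In white fat no member passed the test in any comparison. The shares of all 14402 genes called were 8.64% for IgG1 against NTB (4.09% up, 4.55% down), 7.42% for 3P10 against IgG1 (3.96% up, 3.46% down) and 0% for 3P10 against NTB. The groups of no member were free of overlap, beside 8.85%, 5.65% and 0.847% of genes. At an unadjusted p under 0.05, edgeR gave 2, 1 and 0 of the 8 members in these comparisons, beside 29.1%, 28.1% and 3.76% of all genes, and DESeq2 called 1, 0 and 0. The member called by DESeq2 was Ddit4, in a fit that called 17.4% of genes.

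Ddit4 in white fat was at 24.2, 82.6, 38.7, 12.7 and 42.1 CPM in NTB. The IgG1 libraries were at 76.4, 89.9, 106, 124 and 63.6 CPM, and the 3P10 libraries at 56.0, 68.7, 85.0, 21.1 and 64.8 CPM. IgG1 values were the highest as a group, with 5 of 5 above the NTB mean, but 1 NTB library reached into their range and 3P10 spanned the middle. The log2 difference of IgG1 from NTB was 1.20 (SE 0.41) and missed the threshold (adjusted p = 0.0758). DESeq2 gave 1.23 (adjusted p = 0.0215), edgeR without NTB replicate 2 gave 1.67 (adjusted p = 0.0352), and edgeR without the 2 IgG1 libraries that stood apart gave 1.03 (adjusted p = 0.263), the extremes over 7 other settings being 0.0215 and 0.263. The difference of 3P10 from IgG1 was -0.64 (SE 0.41, adjusted p = 0.316) and that of 3P10 from NTB was 0.56 (SE 0.41, adjusted p = 0.999965).

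Eif4ebp1 in white fat was at 229, 260.2, 218, 309 and 245 CPM in NTB, 309.8, 211, 316, 199 and 236 CPM in IgG1 and 191, 213, 257, 199.7 and 248 CPM in 3P10. The 3 groups covered the same range. The log2 difference of IgG1 from NTB was 0.01 (SE 0.15, adjusted p = 0.966) and its 95% interval ran from -0.31 to 0.34. The difference of 3P10 from IgG1 was -0.20 (SE 0.15, adjusted p = 0.4005) and that of 3P10 from NTB was -0.19 (SE 0.15, adjusted p = 0.999965).

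Ddit4l was the other white fat member with an unadjusted p under 0.05 between IgG1 and NTB. It was at 6.43, 5.38, 8.40, 3.32 and 3.12 CPM in NTB, 2.63, 3.33, 3.84, 1.89 and 4.39 CPM in IgG1 and 4.16, 7.40, 7.80, 7.35 and 3.07 CPM in 3P10. Low values predominated in IgG1 but the groups overlapped, and the log2 differences were -0.74 (SE 0.33, adjusted p = 0.157) for IgG1 against NTB and 0.89 (SE 0.33, adjusted p = 0.103) for 3P10 against IgG1. Sesn3 ran from 5.34 to 8.04 CPM in NTB, 3.78 to 6.62 CPM in IgG1 and 4.52 to 11.3 CPM in 3P10, with log2 differences of -0.30 (SE 0.23, adjusted p = 0.406) and 0.46 (SE 0.23, adjusted p = 0.210) in the same order.

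The other white fat members overlapped between groups and gave no call. Eif4ebp2 had means of 94.4 ± 20.7, 102 ± 15.4 and 96.8 ± 11.2 CPM (SD, n = 5 each) in NTB, IgG1 and 3P10. Sesn1 had 42.5 ± 2.81, 45.2 ± 12.2 and 44.2 ± 4.63 CPM, and Sesn2 had 25.3 ± 3.82, 29.8 ± 9.77 and 32.1 ± 18.5 CPM, the last widened by 1 library at 62.4 CPM. Deptor had 206 ± 17.4, 219 ± 51.9 and 246 ± 50.7 CPM, a log2 difference of 0.26 (SE 0.18, adjusted p = 0.999965) between 3P10 and NTB. Fibroblast markers in white fat summed to 2658 to 4174 CPM in NTB, 655 to 1772 CPM in IgG1 and 1545 to 3174 CPM in 3P10. Blood cell markers summed to 20.2 to 25.2, 16.8 to 20.2 and 25.1 to 38.4 CPM, with 4 to 6 of the 8 markers at 0 counts in each library. The part of these markers in the member values was not tested.

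**Figure D4:**
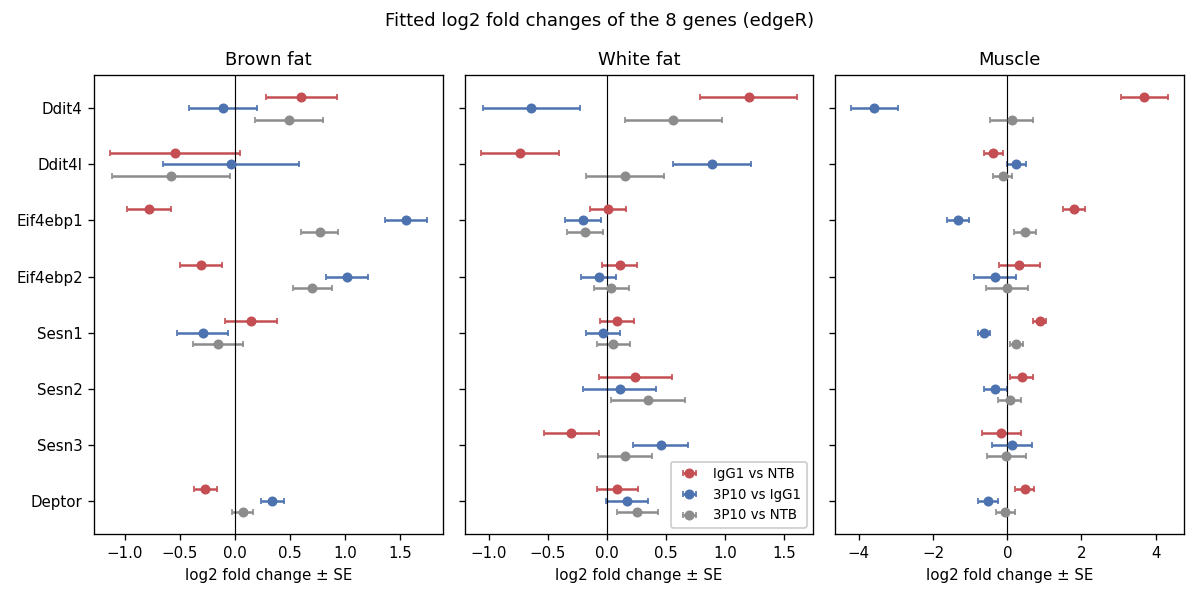
Fitted log2 fold changes with standard errors for the 8 genes in the 3 comparisons and 3 tissues (edgeR), with a scale of its own for each tissue and no point for Sesn2 and Sesn3 in brown fat, which did not pass the filter. The brown fat Eif4ebp1 points lie at -0.78, 1.55 and 0.77, and the muscle Ddit4 points at 3.70 and -3.58 are the largest shown.

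White fat and muscle shared a table and a kit, so their responses to 3P10 relative to IgG1 could be compared in one fit. Every library number recurs in both tissues under the same group, and whether a shared number marks the same mouse is not stated. This fit treated all libraries as independent. None of the 8 members passed the test of the difference between tissues, where 0.208% of 14898 genes were called, and 3 had an unadjusted p under 0.05 (Ddit4, Eif4ebp1 and Sesn1). The white fat minus muscle difference in log2 fold change was 2.90 (SE 0.75, adjusted p = 0.0750) for Ddit4, 1.09 (SE 0.35, adjusted p = 0.117) for Eif4ebp1 and 0.55 (SE 0.23, adjusted p = 0.236) for Sesn1. The Ddit4 difference passed without white fat IgG1 replicate 3 (adjusted p = 0.0328) or muscle IgG1 replicate 1 (0.0330), and the Sesn1 difference without white fat IgG1 replicate 3 (0.0363). Without the 6 libraries that stood apart the differences were 2.57 (adjusted p = 0.404), 0.39 (0.594) and 0.17 (0.823). For 3P10 against NTB none of the members and 0% of genes were called, and none had an unadjusted p under 0.05. Brown fat, with its own kit and table, was left out of such tests.

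Ddit4l and Sesn2 separated white fat from muscle at every library when both tissues were scaled together. Ddit4l was at 1.38 to 5.999 CPM in the 15 white fat libraries and 226 to 661 CPM in the 15 muscle libraries, 121-fold higher by the means. Sesn2 ran from 10.6 to 44.9 CPM over the white fat libraries, whereas muscle libraries held 1.80 to 7.18 CPM, 5.20-fold higher in white fat. The other 6 members overlapped between the tissues.

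Genes of the surrounding pathway were read from lists of the mTOR complexes, their amino acid inputs and their outputs. Of the mTOR complex and TSC genes, none of 12 tested in brown fat was called in any comparison. Of 15 tested in white fat, 2 were higher with IgG1 than in NTB, Mtor itself (log2 difference 0.64, SE 0.13, adjusted p = 0.0107) and Akt1s1, the gene for the mTORC1 inhibitor PRAS40 (0.41, SE 0.12, adjusted p = 0.0457). Mtor fell by 0.57 (SE 0.13, adjusted p = 0.0220) with 3P10, the only call of the 15 there. Without IgG1 replicates 2 and 4 both Mtor calls were lost (adjusted p = 0.0787 and 0.151), the second also without IgG1 replicate 2 (0.0644), 4 (0.0552) or 5 (0.0504) or 3P10 replicate 3 (0.0590) or with the 2 groups fitted alone (0.0685), and the Akt1s1 call in 7 of 10 fits without 1 library (adjusted p up to 0.115). In muscle 1 of the 15, Akt1s1, was called between IgG1 and NTB, beside 5.60% of genes, and none in the other comparisons. The muscle Akt1s1 call was lost in 6 of 10 fits without 1 library, with the 2 groups alone and without the 4 libraries. The medians of this list lay between -0.12 and 0.13 on the log2 scale, where those of all genes lay between -0.02 and 0.01.

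The amino acid sensing genes include the Rag GTPases, which bring mTORC1 to the lysosome, and the Ragulator subunits that anchor them. Of 16 tested in brown fat, 2 rose and 1 fell between 3P10 and IgG1, beside 6.05% and 5.58% of genes. Rraga rose by 0.73 (SE 0.15, adjusted p = 0.00299) and Lamtor1 by 0.52 (SE 0.11, adjusted p = 0.00502), while Rragc fell by 0.52 (SE 0.11, adjusted p = 0.00325). Rraga and Lamtor1 also rose against NTB, by 0.47 (SE 0.14, adjusted p = 0.0484) and 0.37 (SE 0.11, adjusted p = 0.0459), calls that were each lost in 9 of 12 fits without 1 library. In white fat, Rragc was 0.48 higher (SE 0.10, adjusted p = 0.0124) in IgG1 than NTB and fell by 0.46 (SE 0.10, adjusted p = 0.0215) with 3P10. Of 26 tested, 2 and 0 were called up and down in the first comparison, beside 4.09% and 4.55% of genes. In the second, 1 and 1 were called, beside 3.96% and 3.46% of genes. Without IgG1 replicates 2 and 4 the Rragc adjusted p-values were 0.0715 and 0.118, and the second call was also lost without IgG1 replicate 2 (0.0599) or 4 (0.0538) or 3P10 replicate 3 (0.0559) or with the 2 groups fitted alone (0.0703). In muscle none of the 26 was called in any comparison.

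Substrates of mTORC1 and cap-dependent translation genes gave 2 up and 1 down of 19 tested in brown fat between 3P10 and IgG1, beside 6.05% and 5.58% of genes. They were Ulk1 (0.51, SE 0.16, adjusted p = 0.0438), Eif4g2 (0.29, SE 0.09, adjusted p = 0.0474) and Larp1 (-0.41, SE 0.13, adjusted p = 0.0360). ULK1 starts autophagy and eIF4G2 and LARP1 bind translation complexes or mRNA. Each of these calls was lost in 6 or more of 11 fits without 1 library, with adjusted p-values up to 0.110 for Eif4g2, 0.108 for Ulk1 and 0.0965 for Larp1. Against NTB, 1 of the 19 fell, Grb10, a growth factor receptor adaptor (-0.73, SE 0.17, adjusted p = 0.0178), a call lost without NTB replicate 4 (adjusted p = 0.0569). In white fat 3 rose and 1 fell of 21 between IgG1 and NTB, beside 4.09% and 4.55% of genes. Between 3P10 and IgG1 none rose and 1 fell, beside 3.96% and 3.46%. In muscle, Eef2k, the gene for the kinase that restrains elongation, was the only one of 21 called between IgG1 and NTB (0.60, SE 0.13), beside 5.60% of genes. None was called there in the 3P10 comparisons.

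Target lists of factors known to drive Ddit4, Sesn2 or Eif4ebp1 were counted in the same way. The part of these factors in the member values was not tested. Glucocorticoid response genes rose in 10 of 14 in white fat between IgG1 and NTB, among them Per1 (1.33, SE 0.24, adjusted p = 0.00880), Fkbp5 (2.06, SE 0.39, adjusted p = 0.00909) and Mt1 (1.58, SE 0.30, adjusted p = 0.00953), and fell in 6 of 14 between 3P10 and IgG1. Without IgG1 replicates 2 and 4, Fkbp5 and Mt1 were at an adjusted p of 0.0631. In muscle, 10 of 14 were called upward between IgG1 and NTB, beside 2.68% of all genes. Between 3P10 and IgG1, 3 fell: Sgk1 (-1.19, SE 0.19, adjusted p = 0.0142), Per1 (-1.28, SE 0.21, adjusted p = 0.0164) and Cebpd (-2.82, SE 0.50, adjusted p = 0.0294). These were lost in 2, 4 and 7 of 10 fits without 1 library, with adjusted p-values up to 0.0584, 0.0593 and 0.103. In brown fat, 1 of 13 was called between IgG1 and NTB, upward, beside 1.86% of genes. Between 3P10 and IgG1 there, 6 of 13 fell and 1 rose, beside 5.58% and 6.05% of genes. The falls were led by Zbtb16 (-2.61, SE 0.48, adjusted p = 0.00159), Fkbp5 (-2.89, SE 0.54, adjusted p = 0.00172) and Klf9 (-0.59, SE 0.12, adjusted p = 0.00241). The list medians between IgG1 and NTB were 0.55 for brown fat, 1.15 for white fat and 1.18 for muscle, and between 3P10 and IgG1 -0.65, -1.05 and -0.99, beside all-gene medians from -0.02 to 0.01.

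ATF4 and integrated stress response genes gave 0 up and 3 down of 11 in brown fat between 3P10 and IgG1, with Gpt2, an alanine aminotransferase, at -1.11 (SE 0.25, adjusted p = 0.00714). In white fat 1 rose and 2 fell of 20 between IgG1 and NTB, with Chac1, which degrades glutathione, at 1.14 (SE 0.27, adjusted p = 0.0224, and 0.0608 without NTB replicate 1). Between 3P10 and IgG1, 2 of the 20 fell, and Chac1 was at -0.93 (SE 0.27, adjusted p = 0.0475), a call lost in 10 of 10 fits without 1 library. In muscle 3 of 19 were called upward between IgG1 and NTB, beside 2.68% of genes, including Chac1 (2.45, SE 0.37) and Gpt2 (0.92, SE 0.12). None was called there between 3P10 and IgG1. Of the FOXO targets in muscle, 4 of 14 were called upward between IgG1 and NTB, among them the ubiquitin ligase gene Fbxo32 (1.45, SE 0.30). Of the p53 targets 3 of 12 were called upward, among them Trp53inp1 (1.07, SE 0.17), beside the same 2.68% of genes. None of either list was called between 3P10 and IgG1. In brown fat, 3 of 13 FOXO targets fell between 3P10 and IgG1 and none rose, with Fbxo31, a ubiquitin ligase subunit gene, at -1.14 (SE 0.18, adjusted p = 0.000522). Of 10 p53 targets there, 3 fell and 1 rose, with the cell cycle inhibitor gene Cdkn1a at -2.28 (SE 0.37, adjusted p = 0.000662), Trp53inp1 at -1.37 (SE 0.25, adjusted p = 0.00147) and Phlda3 at 0.63 (SE 0.15, adjusted p = 0.00794). Between IgG1 and NTB in brown fat 2 genes of each list were called, all upward, beside 1.86% of genes. Between 3P10 and NTB none of the FOXO targets and 1 p53 target in each direction were called. In white fat, 1 FOXO target rose and 1 p53 target fell between IgG1 and NTB, and between 3P10 and IgG1 the FOXO list gave 1 up and 1 down of 14 and the p53 list 1 up of 12. Hypoxia response genes gave none of 14 in muscle in any comparison. In brown fat they gave 3 up and 0 down of 12 between 3P10 and IgG1, 0 up and 1 down between IgG1 and NTB (beside 2.97% of genes) and 1 up and 0 down between 3P10 and NTB. In white fat they gave 1 up and 1 down of 14 between IgG1 and NTB and 1 up and 2 down between 3P10 and IgG1.

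The genes whose log2 CPM followed Eif4ebp1 most closely differed from tissue to tissue. Over the 17 brown fat libraries, which share group, kit and low depth, they were Atat1, Mmd and Pomp among 7923 genes, with Pearson r of 0.937, 0.912 and 0.901. Over the 15 white fat libraries they were Tm9sf4, Gaa and Surf4 among 13014 genes (0.905, 0.887 and 0.881). Over the 15 muscle libraries they were Eif3f, Dym and Tprgl among 11660 genes (0.980, 0.978 and 0.969), where the split between the 4 numbered libraries and the rest is shared by the points. For Ddit4 the closest genes were Arl4a, Ubl3 and Fam120aos in brown fat (0.752, 0.737 and 0.734), Vps16, Dhx37 and Nr1h2 in white fat (0.877, 0.862 and 0.852) and Sf1, Trp53inp1 and Amotl2 in muscle (0.913, 0.911 and 0.910). No gene appears for more than 1 tissue, and the values describe likeness over these libraries with no test.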

How the data were processed

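RNA from brown fat, white fat and gastrocnemius muscle was sequenced. Brown fat libraries were made with a 3′ kit and a module for molecular identifiers, the others with a directional kit, per the labels' protocols. The authors deposited read counts per gene in 2 tables, 1 for brown fat and 1 for white fat with muscle. Trim Galore, STAR 2.6.0a, featureCounts 1.6.2, edgeR 3.22.3 and the build mm9 are named in the submitters' processing notes. Whether identifiers were collapsed, and the strand setting, are not given in the sources used here.

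The counts were fitted per tissue over all 3 groups with edgeR 4.0.16 in R 4.3.3 (TMM factors, filterByExpr with a minimum count of 10 and a minimum total of 15, quasi-likelihood test). Benjamini-Hochberg adjustment ran over all genes tested, and a gene was called under 0.05. All tests were two-sided. The SE is the log2 fold change over the root of its F value, and intervals are 95%. White fat and muscle were fitted jointly for the tissue difference, where the block alternative used the library number. The likeness of genes used log2 CPM with a prior count of 2 and a mean of at least 10 CPM in brown fat or 1 CPM elsewhere. The script was tested on simulated data. The members, the lists and the tests were chosen with earlier results of these data known. All 8 members were named, and from each list at most the 3 genes with the smallest adjusted p. Alternatives were DESeq2 1.42.0, RLE factors, other filters, the 2 groups alone, a replicate block, each library left out, a muscle marker term, the libraries that stood apart left out and, chosen after seeing the data, a term for 4 muscle libraries. Precision covers counting error and spread between libraries, and brown fat, with 798886 to 2459761 counts per library, is the least precise.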

Additional observations from a re-analysis of the deposited data

Results flagged for a closer look

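Eif4ebp2 in NTB muscle replicate 3 was at 13.7 CPM, far from the other 4 NTB libraries at 86.1 to 108 CPM. This library is among the 4 numbered 14, 15, 16 and 23. Sesn3 in brown fat had 1 high library in the 3P10 group, replicate 2 at 6.55 CPM against 1.77 to 3.56 CPM in the others, and 1 low library in the IgG1 group, replicate 5 at 0 CPM against 0.893 to 1.13 CPM, values that rest on 0 to 8 counts per library. Of 72 groups examined for a distant sample, 3 were found, and chance alone gives about 1 in 20.

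In the following cases every treated library of brown fat lay on one side of the control mean and every treated library of muscle on the other, and the difference between the tissues was not tested because the kits differ. Eif4ebp1 with 3P10 against IgG1 had a log2 difference of 1.55 in brown fat and -1.33 in muscle, the latter not called (edgeR adjusted p = 0.0808). It reuses the IgG1 libraries of the result behind the choice, so the opposite signs are not independent of that choice. Deptor in the same comparison had 0.34 in brown fat and -0.51 in muscle. The muscle difference of Deptor was not called (SE 0.26, edgeR adjusted p = 0.505), and its muscle groups overlapped. Eif4ebp1 with IgG1 against NTB had -0.78 in brown fat and 1.80 in muscle, which is the result that put these genes forward.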

How the results depend on the processing

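The number of members called in brown fat was 3 for 3P10 against IgG1 and 2 for 3P10 against NTB, and stayed at 2 to 3 and at 2 over the other settings. Leaving out each library in turn gave 2 to 3 and 1 to 2. For IgG1 against NTB, the contrast behind the choice, from whose counts nothing is read here or in muscle, it was 1, 0 with the muscle marker term and 0 to 1 without single libraries. In muscle, 3P10 against IgG1 gave 1 member called, but 3 with DESeq2, 4 with the term for 4 libraries, 0 with the 2 groups alone, 0 with the replicate block, 0 without the 4 libraries, and 0 to 3 without single libraries. IgG1 against NTB in muscle gave 3, 4 without the 4 libraries, 6 with the term for them and 3 to 3 without single libraries. In white fat, IgG1 against NTB gave 0, but 1 with DESeq2, 1 with the replicate block (Ddit4, adjusted p = 0.0459), and 0 to 1 without single libraries. The tissue difference for 3P10 against IgG1 gave 0, and 0 to 2 without single libraries. Eif4ebp1 between IgG1 and NTB in white fat changed sign, to -0.0041 with the replicate block and between -0.069 and 0.10 without single libraries. The cause of these changes was not tested.

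Counts over all genes moved further. IgG1 against NTB called 259 genes in brown fat (154 with the 2 groups alone, 164 with the block, 100 with the muscle marker term), 1245 in white fat (2659 with DESeq2, 93 without 2 libraries) and 744 in muscle (1297 with DESeq2, 347 alone, 418 with the block, 2455 with the term). 3P10 against IgG1 called 1068 in white fat (2392 with DESeq2, 105 alone, 15 without 2 libraries) and 28 in muscle (273 with DESeq2, 7 alone, 12 with the block, 18 without 4 libraries, 668 with the term). 3P10 against NTB called 501 in brown fat (323 with the muscle marker term), 0 in white fat (29 with DESeq2) and 0 in muscle (14 with DESeq2, 5 with the term), and the tissue difference 31 (5 with the block, 1 without 6 libraries). Without single libraries the counts for 3P10 against IgG1 ran from 646 to 1120 in brown fat, from 127 to 2304 in white fat and from 8 to 231 in muscle, and those for IgG1 against NTB from 34 to 554, from 344 to 2354 and from 327 to 1307. For 3P10 against NTB in brown fat they ran from 172 to 675.

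The labels do not say that a shared replicate number marks a shared animal or day, and not every same-numbered pair correlated above 0.1, so the block was not made part of the tests. Deviations of same-numbered libraries correlated between -0.137 and 0.0817 in brown fat, between -0.208 and 0.467 in white fat and between -0.596 and 0.556 in muscle. For 3P10 against IgG1, 4 of 5 pairs in muscle, 3 of 5 in white fat and 0 of 5 in brown fat were above 0.1. No library in brown fat, and 1 to 3 of 5 in the comparisons of white fat and muscle, correlated best with its own number. Among the members, the replicate block ended the calls of Deptor in brown fat (adjusted p = 0.0800) and of Ddit4 in muscle (0.144), both for 3P10 against IgG1. Depth limits Sesn2, Sesn3 and Ddit4l in brown fat, where 3 counts correspond to 1.24 to 3.63 CPM.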
